A study of Mus musculus with 6 samples.

Results

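The bile duct and liver progenitor markers described here are 10 genes, namely Prom1, Cd9, Itga6, Epcam, Krt7, Krt19, Sox9, Spp1, Krt8 and Krt18, measured in mouse liver. Members were found by name: each probe set to which the annotation of the array gave exactly 1 of these symbols was taken. This gave 15 probe sets for 9 of the 10 genes, out of 34945 probe sets with 1 gene symbol and 18193 genes on the array. Spp1, the secreted glycoprotein osteopontin, was matched to no probe set and is not analysed here. Prom1, Cd9 and Itga6 were chosen by their log2 rise in LIGHT Tg livers on these same arrays, so their genotype differences are given as a description with no test. The other 7 genes are textbook markers of bile duct epithelium or of the simple epithelium of liver, and the question was whether they rise together with the 3 picked genes.

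Bile ducts are lined by cholangiocytes, an epithelium that makes up a small part of the liver beside the hepatocytes. Cholangiocytes are known for the keratins Krt7 and Krt19, the adhesion molecule Epcam and the transcription factor Sox9, whereas Krt8 and Krt18 are the keratin pair of both hepatocytes and cholangiocytes. In chronic liver injury, small ducts can expand at the edge of the portal tract, and the cells of this ductular reaction carry the duct markers together with Prom1, also called CD133, and Itga6, also called CD49f. A concerted rise of the duct markers is the textbook sign of such an expansion in whole-liver RNA.

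Whole-liver RNA was compared between 3 WT mice (strain B6) and 3 LIGHT Tg mice, all fed a high-fat diet (TD88137) for 2 weeks and 4 to 8 weeks old, with 1 Affymetrix array per sample. LIGHT, the product of Tnfsf14, is a ligand of the tumour necrosis factor family. No source used here gives the transgene's promoter, the cells that express it or the strain of the LIGHT Tg mice, so the transgene and a difference in background cannot be told apart. Groups follow the source names and titles, although the free text of the LIGHT Tg samples calls their mice wild type. Nothing in the labels says outright that each sample is a separate animal, so a p-value covers the spread between these samples only. Part of that spread may be technical, although WT 1 and LIGHT Tg 1 differed from the other arrays in the X- and Y-linked genes given below.

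The summed signal was between 30980000 and 32710000 per array. WT 1 and LIGHT Tg 1, titled 78 and 77, stood apart from the arrays titled 30 to 35 on the first principal component (48.0% of the variance), and the genotypes separated on the next (30.3%). At its brightest probe set, Xist, the RNA that coats the silenced X, had signals of 444 and 406.6 on WT 1 and LIGHT Tg 1 against 7993 to 9714 on the others, and Eif2s3y, a Y-linked gene, had 1037 and 1272 against at most 2.82 at 1 of its 2 probe sets. These X- and Y-linked genes thus split the arrays as the title numbers do, so sex and other differences between the title-number sets cannot be told apart. Each genotype has 1 array of the pair titled 77 and 78, so values are also given within the pair and within the other 4 arrays. A fit with the title-number set as a block is given too. At the brighter of 2 probe sets for Tnfsf14 the signals were 7.7, 11.85 and 7.43 in WT 1 to 3 and 55.7, 19.3 and 26.7 in LIGHT Tg 1 to 3. All LIGHT Tg values were above all WT values at low signal, as at 6.7% of all probe sets (adjusted p = 0.423 in limma over all 45037 probe sets, 0.176 with the block). The dimmer one had a log2 difference of -0.55 ± 0.543, with overlapping groups. No source used here says whether the transgene's RNA holds these probes. The hepatocyte markers were all well measured, with 12 of 12 above the signal filter of 167.4 described with the processing, and their summed signal overlapped between the groups.

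Prom1, Cd9 and Itga6 were several-fold higher in LIGHT Tg livers, while the groups overlapped for Krt7, Krt19, Sox9 and the brighter Epcam probe set. At the leading, that is the brightest, probe set of each gene, the LIGHT Tg mean was 18.4-fold the WT mean for Prom1, 7.80-fold for Cd9 and 8.62-fold for Itga6, as geometric means of 3 arrays per group. Of 11 probe sets for the other 6 measured genes, 0 passed 5% FDR in the limma fit over 6 arrays; 5 of them lay above the filter and 6 below it, where p-values come from the fit over all probe sets (0.457% passed). In that fit 1.17% of the 22519 tested probe sets passed, and 1 of the 11, for Krt18, had an unadjusted p below 0.05, beside 11% of all tested. With the block, 1 of the 11, for Krt18, passed, against 6.47% of all tested. In whole tissue, fewer cells of a type and less RNA per cell cannot be told apart.

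**Figure D1:**
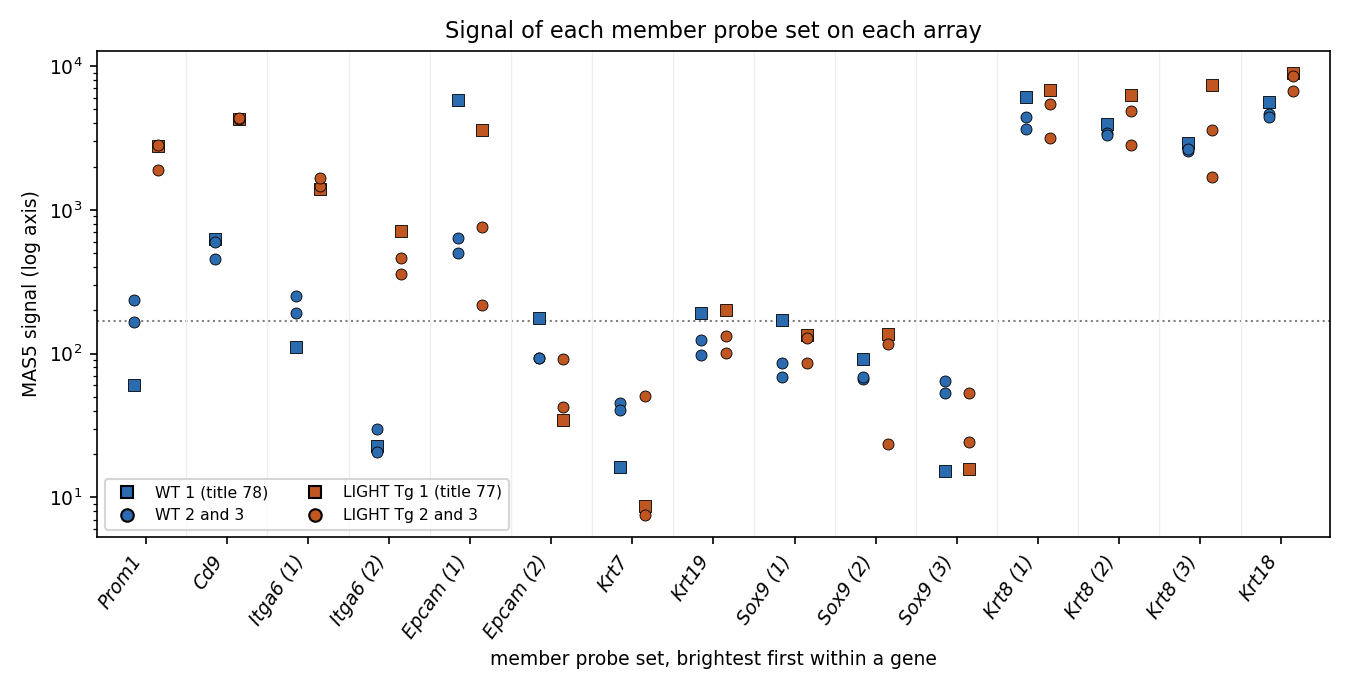
MAS5 signal (log axis) of the 15 member probe sets on each of the 6 arrays, with numbers in brackets where a gene has several probe sets; squares are the arrays titled 77 and 78, and the dotted line is the filter level of 167.4. The groups are apart for Prom1, Cd9, both Itga6 probe sets and Krt18, and for the second Epcam probe set, where LIGHT Tg is lower by a narrow margin.

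Prom1 encodes a pentaspan membrane glycoprotein of cell protrusions that marks duct and progenitor cells in liver. Its single probe set, 1419700_a_at, had signals of 60.85, 235.9 and 166.8 in WT 1 to 3 and of 2766, 1889.6 and 2844 in LIGHT Tg 1 to 3. The lowest LIGHT Tg value was thus far above the highest WT value, and 2 of the 3 WT values lay below the filter level. The log2 difference, LIGHT Tg minus WT, was 4.20 ± 0.483 (SE, n = 3 per group), the 12th largest of the 22519 tested probe sets. It was 5.51 between LIGHT Tg 1 and WT 1 and 3.55 between the means of the other 4 arrays, and WT 1 had the lowest Prom1 signal of all. The interaction of genotype and title-number set was 1.96 ± 0.458 and did not pass (adjusted p = 0.237 in limma), where 0.0666% of tested probe sets passed.

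Cd9 encodes a tetraspanin, a small membrane protein that organises integrins into microdomains and is found on many epithelia, platelets and leukocytes. At 1416066_at its signals were 622.4, 451.4 and 599.7 in WT 1 to 3 and 4301, 4285 and 4333 in LIGHT Tg 1 to 3. The 3 LIGHT Tg values lay closer together than the WT values, with an SD of 0.00815 against 0.254 on the log2 scale. The log2 difference was 2.96 ± 0.172 (SE, n = 3 per group), with 2.79 in the pair and 3.05 in the other 4 arrays. Cd9 was measured well above the filter in both genotypes, unlike Prom1, and 42 of the tested probe sets (0.187%) had a log2 rise at least as large.

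Itga6 encodes the integrin alpha 6 chain, which pairs with beta 1 or beta 4 chains to bind laminin. The brighter of its 2 probe sets, 1422445_at, had signals of 110.5, 250.6 and 192.9 in WT 1 to 3 and of 1405, 1469.5 and 1659 in LIGHT Tg 1 to 3. The dimmer one, 1422444_at, which did not pass the filter, had 22.85, 20.7 and 29.8 in WT and 717.4, 359.6 and 461.0 in LIGHT Tg. Neither probe set had overlapping groups. The log2 differences were 3.11 ± 0.308 and 4.35 ± 0.402 (SE, n = 3 per group), both in the same direction. The WT signals of the dimmer probe set were low, and with an offset of 37.4 added before log2 the values were 2.85 and 3.10. At the brighter one the difference was 3.67 in the pair and 2.83 in the other 4 arrays, and at the dimmer one 4.97 and 4.04.

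The promoter letters of the genes that were higher on every LIGHT Tg array are shown so that the start regions of Prom1, Cd9 and Krt18 can be set beside each other. RefSeq windows (build GRCm38.p6) were matched for 7 of the 10 genes, and not for Itga6, Krt19 or Sox9. Each line gives the 250 bases before an annotated start, 5′ to 3′ on the gene's strand, in lower case with capitals for matches, on both strands, to any of 7 motifs. These were the NF-kappaB motif (GGGA, any 2 bases, TTCC), the TEAD motif GGAATG, the RBPJ motif TGGGAA, the HNF1 motif GTTAAT, the GC box GGGCGG, the CCAAT box CCAAT and the TATA box TATAAA, whose letters did not overlap in these windows.
Prom1 (chr5:44101737-44101986, minus strand): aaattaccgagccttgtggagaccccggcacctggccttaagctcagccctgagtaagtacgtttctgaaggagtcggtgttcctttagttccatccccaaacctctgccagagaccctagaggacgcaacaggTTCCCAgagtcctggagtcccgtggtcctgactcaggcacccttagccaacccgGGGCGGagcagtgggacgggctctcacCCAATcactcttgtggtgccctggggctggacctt
Cd9 (chr6:125494761-125495010, minus strand): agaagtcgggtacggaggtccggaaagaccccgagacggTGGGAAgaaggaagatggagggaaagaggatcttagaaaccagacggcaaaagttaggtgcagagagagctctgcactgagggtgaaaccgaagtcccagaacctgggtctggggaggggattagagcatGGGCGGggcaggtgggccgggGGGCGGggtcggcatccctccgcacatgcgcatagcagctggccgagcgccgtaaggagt
Krt18 (chr15:102027966-102028215, plus strand): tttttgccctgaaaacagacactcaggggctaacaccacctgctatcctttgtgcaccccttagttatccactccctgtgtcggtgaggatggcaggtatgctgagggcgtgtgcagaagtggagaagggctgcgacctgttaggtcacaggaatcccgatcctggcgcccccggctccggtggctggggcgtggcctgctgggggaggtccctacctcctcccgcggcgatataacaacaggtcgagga
Prom1 and Cd9 both held RBPJ and GC box letters, with 1 and 1 match in Prom1 and 1 and 2 in Cd9, and Prom1 also held a CCAAT box. These letters were not particular to the high genes, since Krt8 also held an RBPJ match, and Epcam and Krt7 held GC boxes. The Krt18 window held none of the 7. The shares of all 32851 windows of this length with a match were 21.6% for the RBPJ motif, 32.7% for the GC box, 33.8% for the CCAAT box and 1.21% for the NF-kappaB motif, which none of the 3 windows held. A second listed start of Prom1, downstream of the first, had no match and is not printed. The G and C content was 59.2% for Prom1, 61.6% for Cd9 and 60.4% for Krt18, against a median of 52.4% over all windows.

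Epcam, the epithelial cell adhesion molecule of duct cells that hepatocytes of adult liver largely lack, had 2 probe sets that did not behave alike. The brighter, 1447899_x_at, had signals of 5846, 503.7 and 636.9 in WT 1 to 3 and of 3598, 755.7 and 219.3 in LIGHT Tg 1 to 3. The high values were those of WT 1 and LIGHT Tg 1, and the genotypes overlapped. The name ending _x_at marks a probe set whose probes can match more than 1 transcript, so which RNA it measured is uncertain. The dimmer, 1416579_a_at, had 176.9, 93.3 and 93.0 in WT and 34.5, 42.5 and 92.1 in LIGHT Tg. All LIGHT Tg values were lower here, though WT 3 and LIGHT Tg 3 were nearly equal. The log2 differences were -0.55 ± 1.21 (adjusted p = 0.957) and -1.17 ± 0.534 (adjusted p = 0.673 over all probe sets, as it was below the filter), and neither passed with the block.

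The duct keratins Krt19 and Krt7, which form the intermediate filaments of cholangiocytes, were both dim. Krt19 (1417156_at) had signals of 191.3, 97.3 and 125.1 in WT 1 to 3 and of 201.2, 133.5 and 100.9 in LIGHT Tg 1 to 3, with the groups fully interleaved. Its log2 difference was 0.07 ± 0.415 (adjusted p = 0.999 over all probe sets), with a 95% interval from -0.89 to 1.04 that narrowed to -0.56 to 0.70 with the block. Krt7 (1423952_a_at) had 16.3, 45.1 and 40.2 in WT and 8.75, 50.3 and 7.5 in LIGHT Tg, the highest and the lowest value both being LIGHT Tg. Its log2 difference was -1.05 ± 0.861 (adjusted p = 0.908, interval -3.06 to 0.95). Both lay below the filter, and without detection calls such signals carry no bound.

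Sox9, a transcription factor of duct and progenitor cells, was below the filter at each of its 3 probe sets. At the brightest, 1424950_at, the signals were 170.3, 86.5 and 69.0 in WT 1 to 3 and 134.6, 128.8 and 86.0 in LIGHT Tg 1 to 3. The groups overlapped, and the log2 difference was 0.18 ± 0.457 (adjusted p = 0.992, interval -0.88 to 1.25). The other 2 probe sets had -0.06 ± 0.706 and -0.46 ± 0.753, also with overlapping groups and without a call.

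Krt8 and Krt18 pair in the filaments of hepatocytes as well as duct cells, and both were bright. The 3 probe sets of Krt8 had WT signals between 2577 and 6080.1 and LIGHT Tg signals between 1700.5 and 7443. LIGHT Tg 1 was the highest array and LIGHT Tg 2 the lowest array at each of these probe sets, so the spread was within the LIGHT Tg group. The log2 differences were 0.09 ± 0.310 at 1420647_a_at, 0.31 ± 0.282 at 1423691_x_at and 0.39 ± 0.473 at 1435989_x_at (adjusted p between 0.827 and 0.978 in limma). Which RNA the probe sets ending in _x_at measured is uncertain. Krt18 (1448169_at) had 5632, 4628 and 4408.5 in WT 1 to 3 and 8973, 6744 and 8512 in LIGHT Tg 1 to 3. Here all LIGHT Tg values were above all WT values, as they were for 8.17% of tested probe sets. The log2 difference was 0.72 ± 0.159 (1.65-fold, SE, n = 3 per group), which did not pass in the fit over 6 arrays (adjusted p = 0.105) and passed with the block (0.0106) and in the arrays titled 30 to 35 alone (0.0377, where 4.25% passed). It was 0.67 in the pair and 0.75 in the other 4 arrays.

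**Figure D2:**
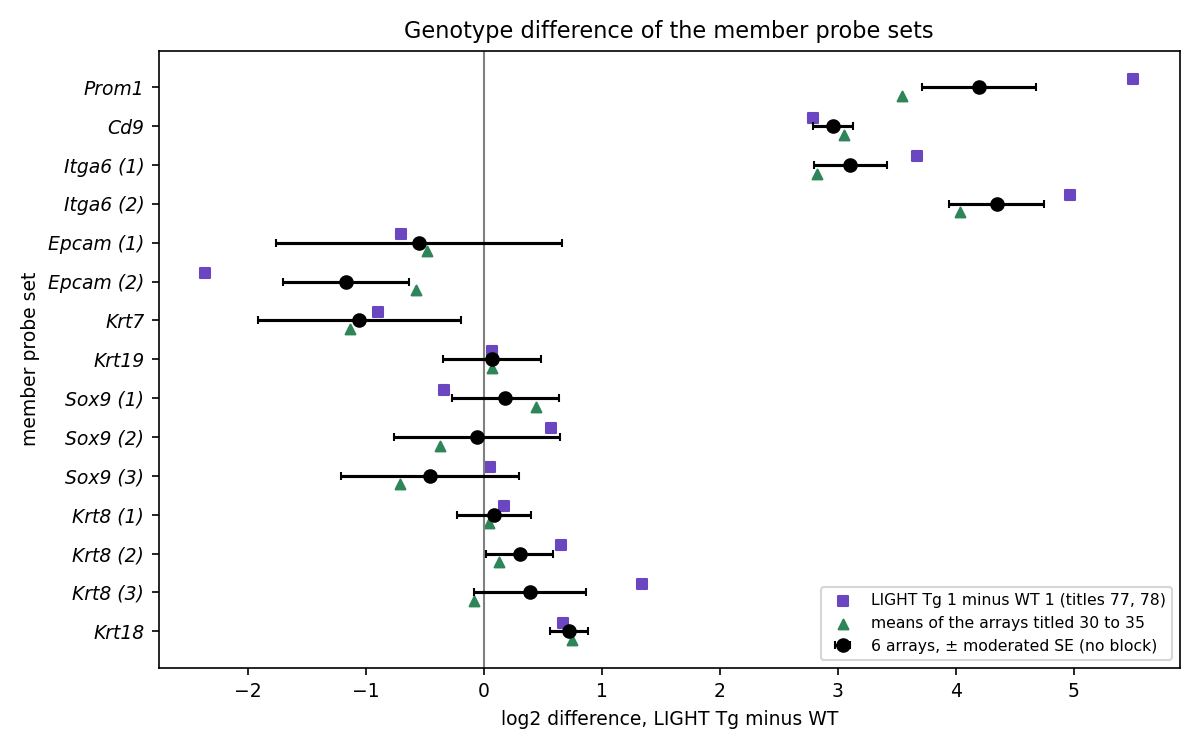
Log2 difference, LIGHT Tg minus WT, of the 15 member probe sets: black points with bars are the fit over 6 arrays ± SE, squares LIGHT Tg 1 minus WT 1, triangles the difference of means in the arrays titled 30 to 35. Prom1, Cd9 and both Itga6 probe sets lie between 2.96 and 4.35, and the 11 others between -1.17 and 0.72.

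Over the leading probe sets of the 6 other measured genes, the median log2 difference was 0.08, beside 0.00 over all 18193 genes. The median was -0.13 in the pair and 0.06 in the other 4 arrays. Leaving out 1 array moved it between -0.17 (without LIGHT Tg 1) and 0.45 (without WT 1), less than the SD of 0.465 between arrays of a group. Of the 11 probe sets, 6 had positive and 5 negative differences. Groups did not overlap at 2 of them, Krt18 (higher) and the dimmer Epcam probe set (lower). Of all 45037 probe sets 13.7% had groups that did not overlap, 6.7% with LIGHT Tg higher and 7.02% with LIGHT Tg lower, and of those past the filter 17.4% (9.19% lower).

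The difference between the title-number sets is a measure that the choice of members did not use. In a fit with genotype, 27.4% of tested probe sets differed between the arrays titled 77 and 78 and the others at 5% FDR, and 1 of the 15 member probe sets did (16.3% over all probe sets). This was the brighter Epcam probe set, higher by 3.26 ± 0.433 in the pair (adjusted p = 0.00380), while the other Epcam probe set had 0.03 ± 0.541. Prom1 had -0.72 ± 0.425 (adjusted p = 0.237), Cd9 0.13 ± 0.152 (0.555) and the brighter Itga6 probe set -0.57 ± 0.226 (0.0982). At the leading probe sets Krt8 had 0.66 ± 0.206 (0.0506), Krt19 0.79 ± 0.282 (0.0981 over all probe sets) and Krt18 0.28 ± 0.111 (0.0979).

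**Figure D3:**
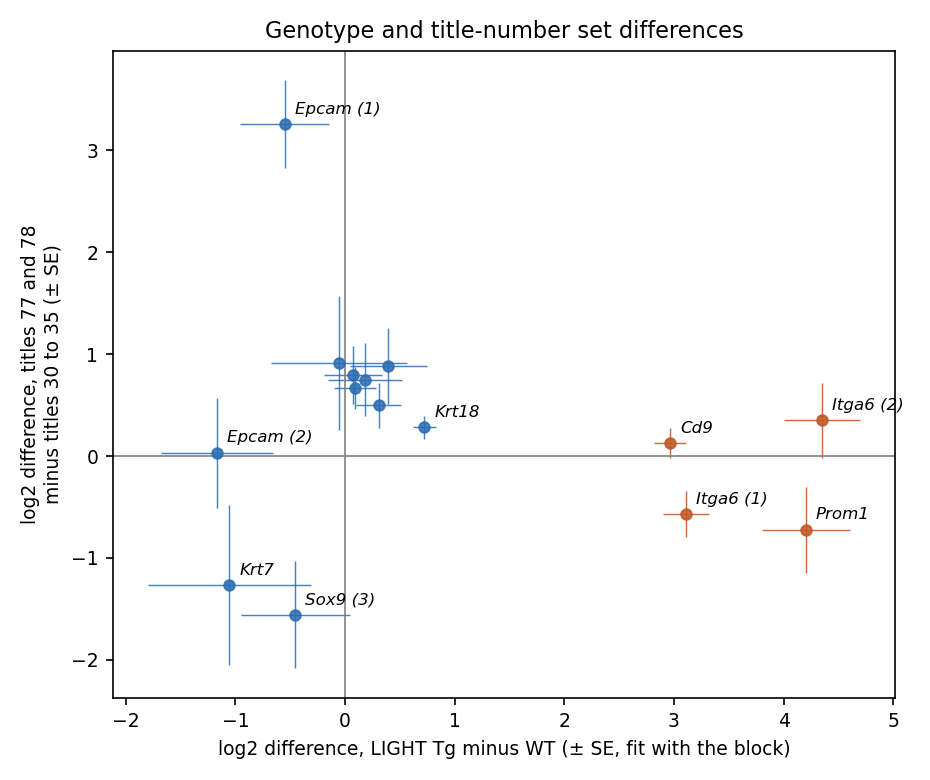
Each point is 1 member probe set, with the genotype difference on the horizontal axis and the difference between the arrays titled 77 and 78 and the others on the vertical axis, both log2 with SE bars from the fit holding both terms. The orange points (Prom1, Cd9, Itga6) lie far right near 0 vertically, and the brighter Epcam probe set lies at 3.26 vertically.

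The genes whose pattern over the 6 arrays was most like each of the 3 high members were sought among 19216 tested probe sets of other genes, by the root mean square difference of log2 signals after taking off each probe set's mean. For Prom1 they were the imprinted gene Peg3 (0.44), the crystallin Crybb3 (0.61) and Itga6 (0.62). Those nearest Cd9 were Marveld3 (0.21), a tight junction protein gene, the organic cation transporter Slc22a2 (0.25) and Hsbp1l1 (0.30). Those nearest Itga6 were 4933404O12Rik (0.31), the secreted growth factor Bmp7 (0.38) and Tmem64 (0.40). The 3 members were chosen by their rise on these same arrays, so a gene's distance from them depends largely on its own genotype difference. The distances and ranks are therefore a description and no separate test. The other duct markers differed in their distance. Krt18 was the nearest of them, at rank 838 of 19216 from Prom1, 547 from Cd9 and 785 from Itga6, and Epcam and Krt7 lay near the far end, at ranks between 18964 and 19138. From Prom1, Krt19 was at 2.26 and Sox9 at 2.25, near the median of 2.21 over all probe sets compared, and Krt18 was at 1.87. From Cd9, Krt19 was at 1.48 Sox9 at 1.451, Krt8 at 1.49 and Krt18 at 1.14 against a median of 1.53.

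The neighbours of the 3 high members in RefSeq gene order were compared, a choice made after the members' values were seen. Of the 3 nearest measured protein-coding genes on each side, 18 in all, 12 passed the filter. Of these 12, 1 passed the test, beside 1.17% of all tested probe sets. This was Vwf, the gene next to Cd9, which encodes von Willebrand factor, a clotting protein of endothelium. Vwf had signals of 147.6, 153.0 and 193.5 in WT 1 to 3 and of 734.2, 791.9 and 1073 in LIGHT Tg 1 to 3. All LIGHT Tg values were above all WT values, as at 8.17% of tested probe sets. The log2 difference was 2.39 ± 0.229 (adjusted p = 0.00678 in limma), 2.31 in the pair and 2.42 in the other 4 arrays. On the other side of Cd9, Plekhg6 had 0.06 ± 0.253 and the receptor gene Tnfrsf1a -0.0012 ± 0.215. The groups overlapped for all 17 other neighbours, whose differences lay between -0.59 and 1.21, with the 11 that passed the filter between -0.37 and 0.29. Over all probe sets, 13.7% had groups that did not overlap.

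**Figure D4:**
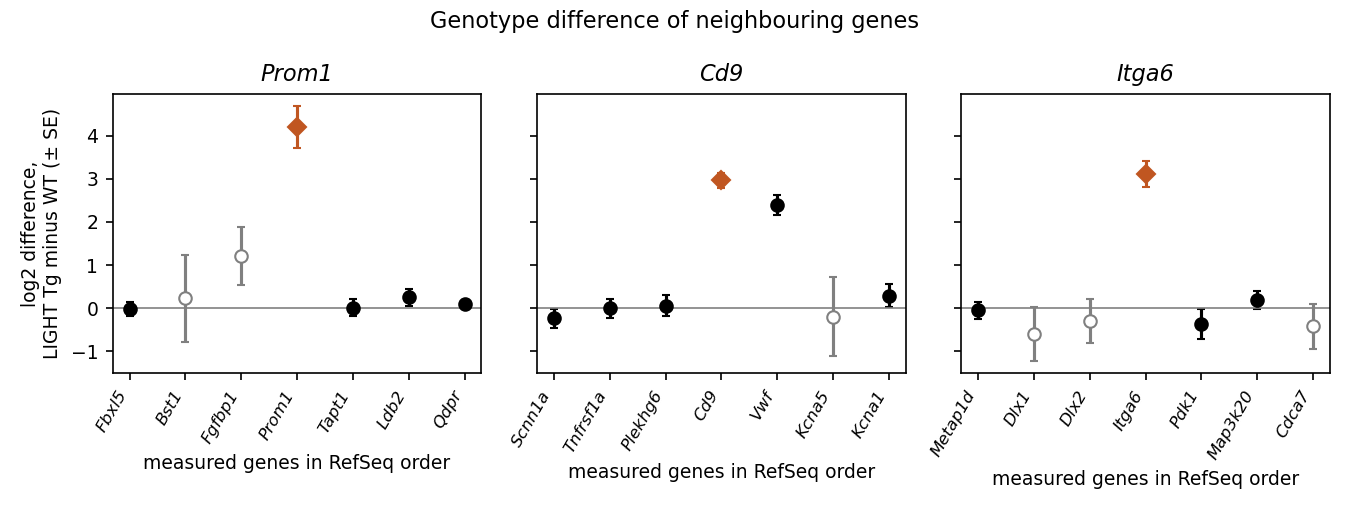
Log2 difference, LIGHT Tg minus WT ± SE (n = 3 per group), of Prom1, Cd9 and Itga6 (orange) and the 3 nearest measured protein-coding genes on each side; open points were below the filter. Vwf beside Cd9 is at 2.39, and the neighbours of Prom1 and Itga6 have groups that overlap.

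Other genes of the bile duct epithelium were taken from a list of 29, of which 25 were measured and 16 passed the filter. In the fit over 6 arrays 0 of the 16 passed, and with the block 2 rose and 2 fell, 25% of the list beside 7.15% of the 11563 genes tested. Onecut1, the transcription factor HNF6 of early duct formation and of hepatocytes, rose with the block. Its signals were 223, 258 and 134.2 in WT 1 to 3 and 497.7, 1249.8 and 1847 in LIGHT Tg 1 to 3, without overlap. The log2 difference was 2.41 ± 0.494 (adjusted p = 0.0861, 0.0202 with the block), with 1.16 in the pair and 3.03 in the other 4 arrays, and its other probe set had 2.16. Onecut2, a related factor, had 0.66 ± 0.173 (0.170, 0.0394 with the block). Its dimmer probe sets had 0.56 and 0.02, and neither passed with the block (adjusted p = 0.0823 and 0.968 in limma). Atp1b1, a subunit of the sodium pump, had -0.80 ± 0.211 (0.171, 0.0487 with the block), and the matrix protease Mmp7, named after its values were seen, -1.15 ± 0.373 (0.283, 0.0265 with the block). At an unadjusted p below 0.05 in limma there were 4 of the 16, beside 11% of all tested probe sets, and the list's median was 0.07, beside -0.01 over all genes tested. The summed signal overlapped, at 32569 to 33934 in WT and 32378 to 34812 in LIGHT Tg.

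These counts rest on the brightest probe set of each gene, and the choice matters for Ddr1, a collagen receptor kinase of epithelia with 8 probe sets, named after its values were seen. The brightest had 0.09 ± 0.184 with overlapping groups. Of the 7 dimmer ones 6 had positive differences, between 1.26 and 3.98. At 5 of these all LIGHT Tg values were above all WT values, as at 6.7% of all probe sets. Most of these 5 have names ending in _x_at, so which RNA they measured is uncertain. At 1456226_x_at the signals were 20.3, 31.7 and 55.8 in WT 1 to 3 and 767.2, 323.9 and 564.9 in LIGHT Tg 1 to 3. Its log2 difference was 3.98 ± 0.503 and passed (adjusted p = 0.0268 over all 45037 probe sets), although its mean lay below the filter. At 1437619_x_at, which lay above it, the difference was 1.41 ± 0.284 (0.0806, 0.0171 with the block). The remaining probe set, 1438367_x_at, had -0.25 ± 0.761. With every probe set of the listed duct genes counted, 33 of 57 lay above the filter and 0 of them passed over 6 arrays. With the block 4 rose and 4 fell, where 6.47% of all tested probe sets passed. The 4 that fell belonged to Atp1b1 and Mmp7, and the 4 that rose to Onecut1, Onecut2, Anxa4 and Ddr1.

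Genes of the fetal and progenitor programme gave a like picture, with 0 of 10 past the test over 6 arrays and 1 risen with the block. This was Cdh1, the epithelial adhesion molecule E-cadherin, which liver makes in ducts and periportal hepatocytes. It had signals of 1260.3, 724.6 and 1451 in WT 1 to 3 and 2157.5, 3429 and 4121.5 in LIGHT Tg 1 to 3. The groups were apart, with a log2 difference of 1.51 ± 0.332 (adjusted p = 0.105, 0.0346 with the block), and 0.78 in the pair against 1.87 in the other 4 arrays. Lgr5, a Wnt-responsive receptor, had -0.63 ± 0.218 (0.325, 0.108 with the block) and Cd44, a hyaluronan receptor, -0.01 ± 0.339. The median of the 10 was 0.11, and 2 had an unadjusted p below 0.05, beside 11% of all tested probe sets. The summed signal of this list was between 4381 and 5617 in WT and between 6330.5 and 8874 in LIGHT Tg. Without Cdh1 the sums overlapped, at 3657 to 4166 and 3466 to 4753.

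The Notch and YAP genes, whose pathways direct duct fate, had a median of -0.11 over 15 tested, with 0 past the test (1 at an unadjusted p below 0.05) and 1 fallen with the block. Ccn2, a YAP target that encodes connective tissue growth factor, had -1.03 ± 0.295 (adjusted p = 0.215, 0.0498 with the block). Amotl2, another YAP target, had -0.92 ± 0.446 (0.533), the Notch target Heyl 0.50 ± 0.230 (0.499), and Yap1 itself -0.12 ± 0.213 (0.943). Among 8 tested genes of LIGHT, lymphotoxin, TWEAK and growth signals, 0 passed in either fit (1 at an unadjusted p below 0.05 over 6 arrays, median 0.02), with the oncostatin M receptor gene Osmr at 0.65 ± 0.194 (0.240), and -0.87 and -0.43 at its other probe sets, and the hepatocyte growth factor receptor gene Met at -0.38 ± 0.184 (0.535). With every probe set of these genes counted, 1 rose with the block, a dimmer one for the growth factor receptor gene Fgfr2 (1.21 ± 0.223, 0.0616 and 0.00488 with the block).

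Partners of Itga6 and Cd9 were also listed. Of 11 integrin, laminin and tetraspanin genes tested, 0 passed over 6 arrays (1 at an unadjusted p below 0.05) and 1 rose with the block (median 0.04). Cd81, a tetraspanin closely related to Cd9, had signals of 7818, 6610.0 and 6646 in WT 1 to 3 and 10514, 8433 and 10772 in LIGHT Tg 1 to 3, and its groups were apart. Its log2 difference was 0.49 ± 0.139 (adjusted p = 0.208, 0.0360 with the block). Cd151, the tetraspanin that binds the Itga6 chain, had 0.65 ± 0.315 (0.531) at its brightest probe set and between -0.24 and 0.90 at 5 others. Cd82 had 0.04 ± 0.132 (0.980). No other partner passed.

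**Figure D5:**
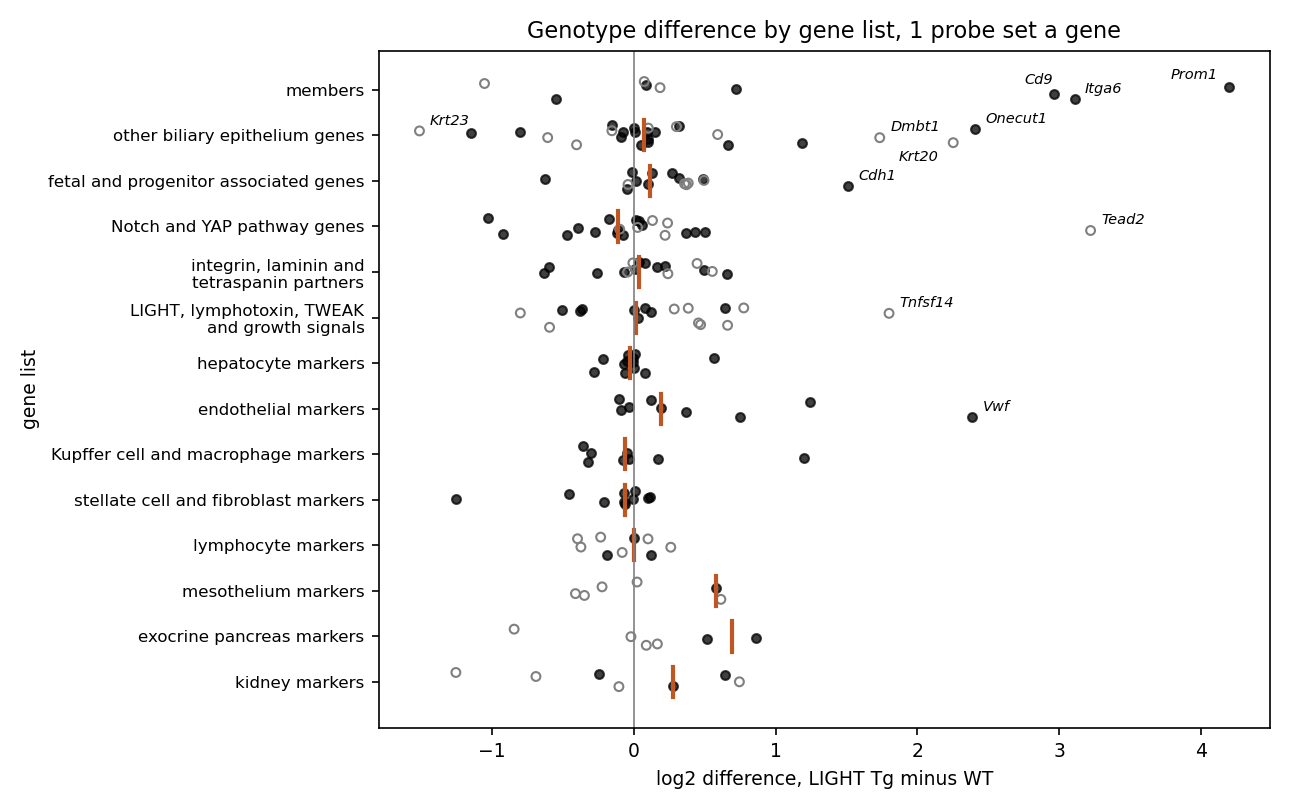
Log2 difference, LIGHT Tg minus WT, of 1 probe set per gene for the measured members and the 13 other lists; filled points passed the filter, open points did not, and orange bars are medians of filled points. Prom1, Cd9 and Itga6 stand to the right of the other members, and the list medians with at least 8 filled points lie between -0.11 and 0.19.

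Markers of other cells were set beside these values. Of 9 endothelial markers 2 rose (22.2%, beside 0.839% of all genes tested), Vwf and Lyve1, the hyaluronan receptor of sinusoids (1.24 ± 0.1998, adjusted p = 0.0393), and 3 rose with the block (33.3%, where 7.15% of all genes passed), Stab2 being the third (0.75 ± 0.176, 0.125 and 0.0127 with the block). The other endothelial markers did not pass in either fit. Clec4g had 0.36 ± 0.175 with groups apart. Groups overlapped for Pecam1 (0.19), Cdh5 (0.12), Kdr (-0.09), Eng (-0.11) and Tek (-0.03). The summed signal of this list was between 8824 and 9567 on the WT arrays and between 11948 and 14995 on the LIGHT Tg arrays, without overlap. The part of this list in the Prom1, Cd9 and Itga6 values was not tested. Among the Kupffer cell, stellate cell, lymphocyte, mesothelium and pancreas lists 0 genes passed in either limma fit, and over 6 arrays 1 stellate and 1 pancreas marker had an unadjusted p below 0.05. Tested members numbered 8 of 8 measured for Kupffer cells and macrophages, 10 of 10 for stellate cells and fibroblasts, 3 of 9 for lymphocytes, 1 of 6 for mesothelium and 2 of 6 for pancreas. The summed pancreas signal was between 551.7 and 678.6 in WT and between 776.6 and 956.2 in LIGHT Tg, also without overlap. Without Cela3b, an elastase gene, the sums overlapped, at 341.7 to 414.6 and 405.4 to 479.6. The brightest Cela3b probe set had 0.86 ± 0.238 (adjusted p = 0.195), and its 3 others -0.05, 0.14 and -0.33. Of 7 kidney markers 3 were tested and 0 passed (0 at an unadjusted p below 0.05), with Kap at 0.65 ± 0.363 (0.622, 0.0349 with the block), and the summed signals overlapped. Of 12 hepatocyte markers 0 passed (1 at an unadjusted p below 0.05), and Asgr1, the asialoglycoprotein receptor, rose with the block (0.57 ± 0.143, 0.153 and 0.0102 with the block), with a list median of -0.02.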

How the data were processed

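The authors deposited linear-scale intensities, made with MAS5 per the submitters' processing notes, with 1 value per array for each probe set. No source used here gives its version, scaling target or detection calls. The trimmed mean signal was 490.0 to 505.1 per array. Before taking log2, the 106 values under 1 were raised to 1. After leaving out 64 control probe sets of 45101, the brighter probe sets were tested, those whose mean log2 signal reached the median, 7.387 or a signal of 167.4, 22519 in all. Of the 15 member probe sets 8 passed; for the others p-values come from the same fit over all 45037. The genotypes were compared with lmFit in limma 3.58.1 (R 4.3.3, eBayes with a variance trend), two-sided, with Benjamini-Hochberg adjustment at 5% FDR. SEs are moderated.

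Symbols were checked against RefSeq (GRCm38.p6), which changed 0. Probe sets with several symbols (932) or unnamed here (9160) were not used for names. Of 173 list entries 12 were not matched. The members and the lists were chosen with earlier results of these data known. Genes named are all members; per list up to 3 with the largest statistic and up to 2 with the highest signal; and the 3 genes most alike in pattern. Of these, some from lists are left out of the text. The alternatives tried were a filter at the 75th percentile or none, adding 37.4 before log2, quantile normalization, a common median, eBayes without trend or robust, the title-number block, arrays titled 30 to 35 alone, each array left out, and the mean of all probe sets of a gene. After seeing the data, list counts over every probe set of a gene and list sums without 1 gene were added. On data simulated for this comparison (5 simulations, 22519 probe sets), changes of log2 3 were found in 82% without and 92.4% with the block, and changes of log2 1 in 8.8% and 42%. Only probe sets past the filter were simulated, so these shares do not cover Krt7, Krt19, Sox9 or the dimmer Epcam probe set. Figures were drawn with matplotlib 3.10.9.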

Additional observations from a re-analysis of the deposited data

Results flagged for a closer look

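The dimmest Sox9 probe set was marked because its genotype difference had opposite signs in the title-number sets: 0.056 between LIGHT Tg 1 and WT 1, and -0.71 between the means of the arrays titled 30 to 35, where both LIGHT Tg values lay below both WT values. Its signals were 15.25, 53.5 and 64.1 in WT 1 to 3 and 15.85, 53.1 and 24.1 in LIGHT Tg 1 to 3, below the filter throughout. LIGHT Tg 2 and WT 2 were nearly equal here, at 53.1 and 53.5. The interaction was 0.77 ± 0.998 in limma and did not pass (adjusted p = 0.832 over all probe sets). Opposite signs were not particular to this probe set. For LIGHT Tg 1 minus WT 1, then the arrays titled 30 to 35, Sox9 1424950_at had -0.34 and 0.45. In the same order, Sox9 1433889_at had 0.57 and -0.37, and Krt8 1435989_x_at had 1.34 and -0.080. At these other probe sets the groups overlapped in the arrays titled 30 to 35.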

How the results depend on the processing

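The count of probe sets called between the genotypes, 264, was 148 without the variance trend, 1457 with the title-number set as a block and 956 in the arrays titled 30 to 35 alone. Leaving out 1 array gave 43 to 306: LIGHT Tg 3 left out gave 43, WT 3 gave 63, WT 2 gave 68 and LIGHT Tg 2 gave 80. The count between title-number sets, 6163, was 3465 with the stricter filter and 2698 to 4632 with 1 array left out (2698 without WT 1, 3790 without WT 2, 3595 without LIGHT Tg 1). The interaction count, 15, was 3 with no filter, 7 with the stricter filter, 8 with the offset and 2 without the trend; it was not run with 1 array left out. Causes were not tested. Fewer genes or arrays enter some of these fits.

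Prom1, Cd9 and Itga6 kept their direction in all 56 alternative values. They were chosen by their rise on these same arrays, so this is a description and no test. The values ran between 3.55 and 4.61 for Prom1 and between 2.82 and 3.05 for Cd9. For Itga6 they ran between 2.78 and 3.37 at the brighter probe set. At the dimmer one they ran between 3.10 (with the offset) and 4.57. Of 154 alternative values of the other members, 140 kept direction and call, 2 gained the call (both Krt18) and 12 changed sign, none of them called. With 1 array left out, values ran from -1.60 to 0.57 for Epcam 1447899_x_at, -0.19 to 0.34 for Krt19, -0.087 to 0.56 and -0.52 to 0.75 for the 2 brighter Sox9 probe sets, and -0.15 to 0.40 and -0.14 to 0.93 for the brightest and the dimmest Krt8 probe sets. Sox9 1433889_at was 0.065 with the offset, and Krt8 1435989_x_at was -0.080 in the arrays titled 30 to 35. The adjusted p of Krt18 ran from 0.0106 to 0.409. No paired analysis was possible because the title numbers are not shared between the genotypes. Low signals and 3 arrays per group limit what can be said of Krt7, Krt19, Sox9 and Epcam.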

Other observations

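Of 53 list genes below the filter, 6 differed by at least 1 on the log2 scale, 4 with LIGHT Tg higher and 2 lower, and their lowest adjusted p in limma was 0.171. These 6 genes are named after their values were seen. The share of all probe sets below the filter with so large a difference is not given here, so this count has no background to be set against. Tead2, which encodes a DNA-binding partner of YAP, had signals of 18.1, 11.2 and 27.5 in WT 1 to 3 and of 70.7, 434.4 and 147.9 in LIGHT Tg 1 to 3. All LIGHT Tg values were above all WT values, as at 6.7% of all probe sets, and the log2 difference of 3.22 ± 0.740 did not pass in limma (adjusted p = 0.171 over all probe sets, 0.0633 with the block). Krt20, a keratin of gut and of some duct epithelium, had 28.8, 25.7 and 5.50 in WT and 133.9, 82.5 and 39.9 in LIGHT Tg, again without overlap (2.25 ± 0.806, adjusted p = 0.490, 0.166 with the block). Tnfsf14 is described above. The groups overlapped for the others, which were Dmbt1 (1.73 ± 0.821), a mucin-like protein of ducts, Krt23 (-1.51 ± 0.617), another keratin, and Umod (-1.26 ± 0.784), a kidney protein. Krt23 had 53.4, 110.8 and 113.3 in WT 1 to 3 and 62.5, 23.4 and 19.7 in LIGHT Tg 1 to 3.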
